A study of Mus musculus with 14 samples.

Results

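The gene set described here holds 47 genes of DNA replication licensing, the replication fork, nucleotide supply and their E2F control, of 29713 genes in each deposited table. The genes were chosen by name and role, with earlier results of these data known. All 47 were found by symbol and passed the filter on low counts. They fall into 6 roles. There were 11 genes of origin licensing, 6 of helicase activation, 17 of the replication fork and 5 of nucleotide supply. A further 6 belong to the E2F and cyclin E control of S phase entry, and 2 to chromatin assembly behind the fork. RNA was sequenced from neural stem cells (NSC) grown in culture from OG2 mice, a strain that carries a fluorescent reporter of the pluripotency gene Pou5f1. The drug experiment at passage 8 covered cells left undifferentiated and cells at day 2, day 4 and day 8 of differentiation. At each stage cells received naloxone, an antagonist of opioid receptors, DAMGO, a synthetic enkephalin-like peptide that activates the mu opioid receptor, or the control that the labels call NC, which gives 12 libraries. The question was whether the opioid drugs alter how these cells proliferate and differentiate. The other 2 libraries were undifferentiated NSC at passage 13 and at passage 8 with no named treatment, the reference cultures. Each condition had 1 library, and nothing in the labels says which libraries share a culture, so a stage is summarised by the mean ± SD of its 3 libraries, 1 per treatment. The p-values therefore measure no spread between replicates of a condition. In the stage tests the spread is the departure of the libraries from additive effects of stage and treatment. In the drug tests within a stage it is the difference between the naloxone and DAMGO libraries. Either spread may be technical. The labels used here name no medium, dose or cue for differentiation.

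Replication origins are licensed when the origin recognition complex, Cdc6 and Cdt1 load the ring-shaped MCM2-7 helicase onto DNA, and geminin holds Cdt1 in check once S phase has begun. Cdc45 and the GINS complex turn the loaded ring into an active helicase. Polymerase alpha-primase then lays down primers, and polymerases delta and epsilon extend them on the sliding clamp PCNA. Ribonucleotide reductase, thymidylate synthase, thymidine kinase and dUTPase keep the deoxynucleotide pools filled. Many of these genes are transcribed under E2F factors at the passage into S phase, and in dividing neural progenitors they are abundant and decline as cells leave the cycle. The RNA came from whole cultures, so fewer dividing cells and less of a transcript per cell cannot be told apart in any result given here.

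E2F sites lie close to the start site in promoters of this kind, and a set of promoters picked by hand is shown. RefSeq promoter windows (GRCm38.p6, 250 bases before and 50 after the start site) were at hand for 38 of the 47 members. A match to the letters TTTCCCGC, TTTCGCGC, TTTGCCGC or TTTGGCGC on either strand was found for 15 of the 38 (39.5%), against 704 of 27025 genes with a window (2.6%). A CCAAT box, the plain letters CCAAT on either strand and a frequent promoter element, was found for 23 of the 38 (60.5%), against 41.1% of all genes with a window. Read on the other strand, CCAAT shares the letters TTGG with TTTGGCGC. A match is a run of letters and not a measured binding site. All 47 members were lower at day 2 than in undifferentiated cells, with or without a match. A link between a match and the fall of a gene was not tested. The windows printed cover the 160 bases before the RefSeq start site, 5′ to 3′ on the gene's own strand. They are those of the licensing genes Mcm5 (chr8:75109349-75109508, plus strand), Mcm6 (chr1:128359706-128359865, minus strand), Cdc6 (chr11:98907991-98908150, plus strand) and Orc1 (chr4:108579294-108579453, plus strand), of the polymerase gene Pola1 (chrX:93632156-93632315, minus strand) and of Rpa1 (chr11:75348384-75348543, minus strand), the member whose mean TPM at day 8 was closest to its undifferentiated level. Capitals mark the E2F letters, and matches overlap where the run of capitals exceeds the 8 letters of the motif.
Mcm5: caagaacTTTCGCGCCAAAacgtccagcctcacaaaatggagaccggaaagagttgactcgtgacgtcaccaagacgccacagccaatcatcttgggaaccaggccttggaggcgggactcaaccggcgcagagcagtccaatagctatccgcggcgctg
Mcm6: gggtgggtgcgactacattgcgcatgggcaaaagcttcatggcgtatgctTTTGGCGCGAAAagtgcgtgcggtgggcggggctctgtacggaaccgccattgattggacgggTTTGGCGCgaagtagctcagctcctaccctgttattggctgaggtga
Cdc6: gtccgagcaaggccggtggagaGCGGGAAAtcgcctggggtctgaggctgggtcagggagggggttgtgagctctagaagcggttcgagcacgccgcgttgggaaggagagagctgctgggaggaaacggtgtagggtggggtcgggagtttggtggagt
Orc1: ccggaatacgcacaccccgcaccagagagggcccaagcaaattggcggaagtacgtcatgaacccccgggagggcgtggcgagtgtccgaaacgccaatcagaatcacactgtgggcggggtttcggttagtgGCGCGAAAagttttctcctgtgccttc
Pola1: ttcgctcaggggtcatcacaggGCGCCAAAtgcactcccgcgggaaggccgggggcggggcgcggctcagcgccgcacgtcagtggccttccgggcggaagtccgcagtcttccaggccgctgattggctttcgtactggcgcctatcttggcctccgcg
Rpa1: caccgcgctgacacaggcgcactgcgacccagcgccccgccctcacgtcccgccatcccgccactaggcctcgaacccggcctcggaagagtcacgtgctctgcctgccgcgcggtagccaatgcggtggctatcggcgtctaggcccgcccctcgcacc
Among these, Mcm6 held 3 matches, Mcm5 held 2 that overlap, Cdc6, Orc1 and Pola1 held 1 each and Rpa1 held none. The match of Orc1 began 27 bases before the start site and those of Cdc6 and Pola1 138 bases before it. For Mcm5, Mcm6 and Rpa1 the stretch checked after the RefSeq start site was not found near the start of a GENCODE transcript. The start sites of these genes are thus less certain.

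In undifferentiated cells of the drug experiment the 47 genes summed to 4681 ± 71.9 TPM (transcript abundance corrected for transcript length; SD, n = 3). They summed to 965 ± 42.4 TPM at day 2 (20.6% of the undifferentiated sum), 859 ± 37.9 TPM at day 4 (18.4%) and 766 ± 14.6 TPM at day 8 (16.4%), so most of the difference was present by day 2. Every library of a differentiation day summed to less than every undifferentiated library, with 754.7 to 1003.6 TPM over the 9 differentiating libraries and 4636.5 to 4763.7 TPM over the 3 undifferentiated ones. Pcna, which encodes the sliding clamp, was the most abundant member in undifferentiated cells, at 714 ± 20.8 TPM, and Orc1, the cell-cycle regulated subunit of the origin recognition complex, the least, at 10.2 ± 2.53 TPM. The libraries held 4143030 to 9070533 expected counts, so that members under about 1 TPM rest on few counts. At day 8, E2f7 had between 1 and 5 counts in a library, E2f2 3 to 6 and Cdc6 3 to 7.

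**Figure D1:**
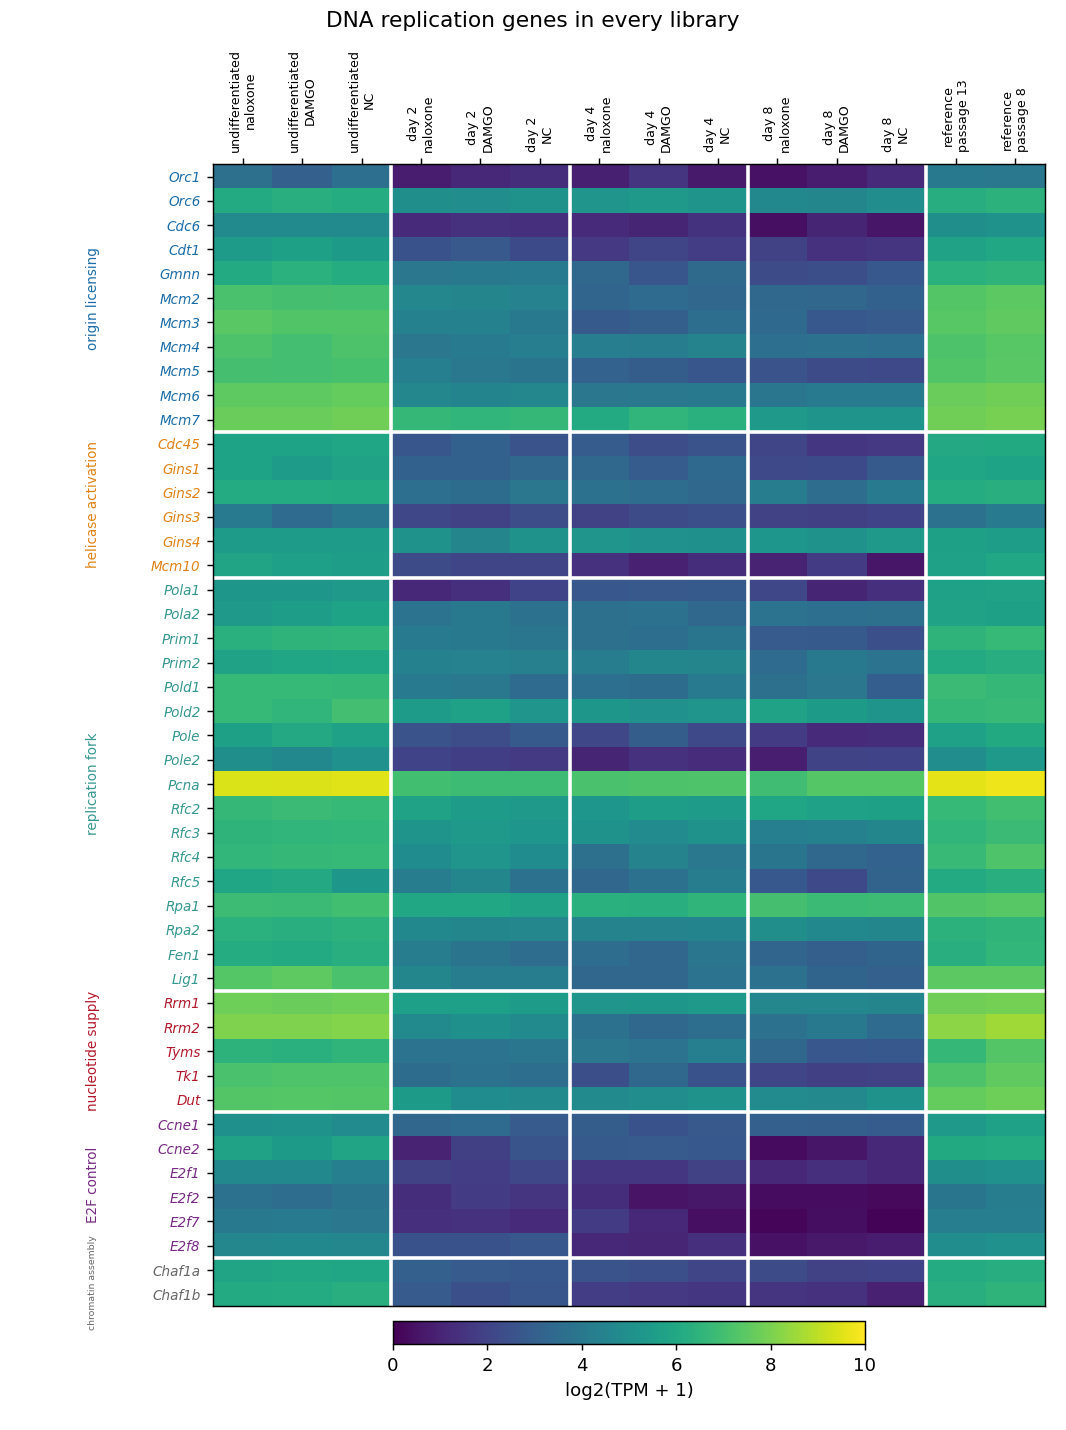
Level of each of the 47 genes (rows, grouped by role) in each of the 14 libraries (columns, by stage and treatment), as log2(TPM + 1). The undifferentiated and reference columns are high for nearly all rows, and the 9 differentiating columns are low except for Rpa1, Gins4 and a few others.

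At day 2 all 47 genes had fallen relative to undifferentiated cells (edgeR quasi-likelihood test with Benjamini-Hochberg adjustment, adjusted p under 0.05), where 35.9% of all 13144 genes tested were lower and 33.7% higher. The median fitted change of the members was -2.54 on the log2 scale, against -0.01 over all genes tested. At day 4 all 47 were again lower than in undifferentiated cells and none higher (31.0% and 31.4% of all genes), with a median of -3.09 against -0.01. At day 8, 45 were lower and none higher (38.5% and 41.6% of all genes), with a median of -3.43 against 0.05. Every day 2 library lay below every undifferentiated library in TPM for 47 members (36.1% of all genes), every day 4 library for 47 (28.4%) and every day 8 library for 46 (45.4%). When the change was required to exceed 2-fold, 44 members remained called at day 2 (all but Gins4, Rfc2 and Rpa1), 44 at day 4 (all but Orc6, Gins4 and Rpa1) and 43 of the 45 at day 8 (all but Pold2 and Rfc2). At that minimum change, 1602, 1149 and 2452 of all 13144 genes were lower at day 2, day 4 and day 8.

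Markers of the cells in the cultures moved over the same days. The 8 astrocyte markers summed to 771 to 798 TPM in undifferentiated libraries, 8802 to 10208 at day 2, 13188 to 14319 at day 4 and 39748 to 43258 at day 8, with Gjb6 at 0 in a pair of undifferentiated libraries and in a day 2 library. The 7 oligodendrocyte lineage markers summed to 61.1 to 66.4 TPM in undifferentiated libraries, 383 to 400.4 at day 2, 924.5 to 947 at day 4 and 324 to 346 at day 8. The 6 neuron markers summed to 558 to 570.1 TPM in undifferentiated libraries, 385 to 884 at day 2, 1013 to 1062 at day 4 and 244 to 298 at day 8, although 3 of the 6 were higher at day 8 and 2 lower, with a median fitted change of 1.35. The 6 neural stem cell markers were above 0 in every library and summed to 10434 to 10875 TPM in undifferentiated libraries, 9721 to 12537 at day 2, 7459 to 8148 at day 4 and 8042 to 9120 at day 8, where 4 of the 6 were higher and 2 lower, with a median fitted change of 0.71. Microglia markers summed to at most 1.94 TPM and endothelial markers to at most 7.26, with Cdh5 and Cldn5 at 0 in every library, and fibroblast and pericyte markers to 42.7 to 51.4 TPM at day 4 and at most 35.1 elsewhere. Pluripotent cell markers summed to at most 7.5 TPM, with Zfp42 and Dppa5a at 0 in every library. The part of these markers in the fall of the replication genes was not tested.

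All 11 origin licensing genes fell, with a median log2 change of -3.03 at day 2 and -3.83 at day 8. Cdc6, the loader that joins the origin complex, had 26.6, 25.5 and 26.1 TPM with naloxone, DAMGO and NC in undifferentiated libraries and 1.33, 1.72 and 1.60 at day 2. Cdc6 then had 1.34, 1.06 and 1.79 TPM at day 4 and 0.34, 1.03 and 0.51 at day 8. Its differentiating libraries lay far below the undifferentiated ones, at 5.94% of their mean level at day 2 and 2.40% at day 8. The fitted change was -3.90 ± 0.22 at day 2 and -5.77 ± 0.27 on day 8 (log2 ± SE; adjusted p = 1.36e-07 and 1.79e-08). Orc6, a small subunit of the origin complex, had 69.0, 77.3 and 73.0 TPM with naloxone, DAMGO and NC in undifferentiated libraries and 30.3, 28.8 and 32.9 at day 2. Orc6 then had 36.5, 40.1 and 35.6 TPM at day 4 and 24.3, 23.2 and 28.9 at day 8. The groups did not overlap, but Orc6 kept 41.9% of its undifferentiated level at day 2 and 34.8% at day 8, with fitted changes of -1.21 ± 0.10 and -1.31 ± 0.10 (adjusted p = 3.24e-06 and 1.08e-06). Orc6 shares bases with Vps35 on the other strand, and the library kit did not mark the strand, so reads of the overlap cannot be told apart. Orc1, the other subunit of the origin complex in the set, went to 11.2% of its undifferentiated level at day 2 and 7.80% at day 8. The deposited effective length at day 8 was 0.634 of the undifferentiated value for Orc1 and 0.683 for Cdc6. The day 8 TPM of both is thus higher relative to undifferentiated cells than their counts are. On counts the fitted change of Orc1 was -3.49 ± 0.21 at day 2 and -4.40 ± 0.24 at day 8, where it had 2.72 to 6 counts in a library. Cdt1, which brings the helicase to the origin, was at 10.5% at day 2 and 4.70% at day 8, and Gmnn, the gene of its inhibitor geminin, at 21.1% and 6.28%.

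The 6 subunits of the MCM2-7 ring are needed in equal numbers in the protein complex, and their transcripts lay within 1.65-fold of each other in undifferentiated cells. The highest subunit stood 6.23-fold over the lowest at day 2, 12.2-fold at day 4 and 8.98-fold on day 8, and in each stage Mcm7 was the highest and Mcm5 the lowest. Mcm7 had 211, 212 and 229 TPM with naloxone, DAMGO and NC in undifferentiated libraries and 101, 95.7 and 100.3 at day 2. Mcm7 then had 68.9, 93.8 and 80.8 TPM at day 4 and 40.9, 35.0 and 35.2 at day 8. The other 5 subunits were at 11.5% to 16.9% of their undifferentiated level at day 2, against 45.5% for Mcm7. Mcm7 over the median of the other 5 was 4.84 to 5.43 in day 2 libraries, 7.21 to 9.13 in day 4 libraries and 3.92 to 4.61 in day 8 libraries, against 1.44 to 1.61 in undifferentiated libraries, with no overlap. The fitted changes of Mcm7, -1.58 ± 0.09 at day 2 and -2.77 ± 0.09 at day 8, were made on counts and do not use transcript length (adjusted p = 1.45e-07 and 1.82e-09). The effective length that the deposited tables give Mcm7 was 0.720 of its undifferentiated value at day 2, 0.681 at day 4 and 0.742 on day 8, so that the TPM of Mcm7 at those stages is higher relative to undifferentiated cells than its counts are. Mcm7 overlaps Cops6 and Ap4m1 on the other strand and holds the microRNA genes Mir25, Mir93 and Mir106b, and the part of that overlap in its level was not tested. Mcm5 had 130.4, 128 and 136 TPM with naloxone, DAMGO and NC in undifferentiated libraries and 18.9, 15.2 and 13.6 at day 2. Mcm5 then had 7.86, 6.69 and 5.34 TPM at day 4 and 4.94, 3.87 and 3.57 at day 8, and was at 12.1% of its undifferentiated level at day 2 and 3.14% at day 8.

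**Figure D2:**
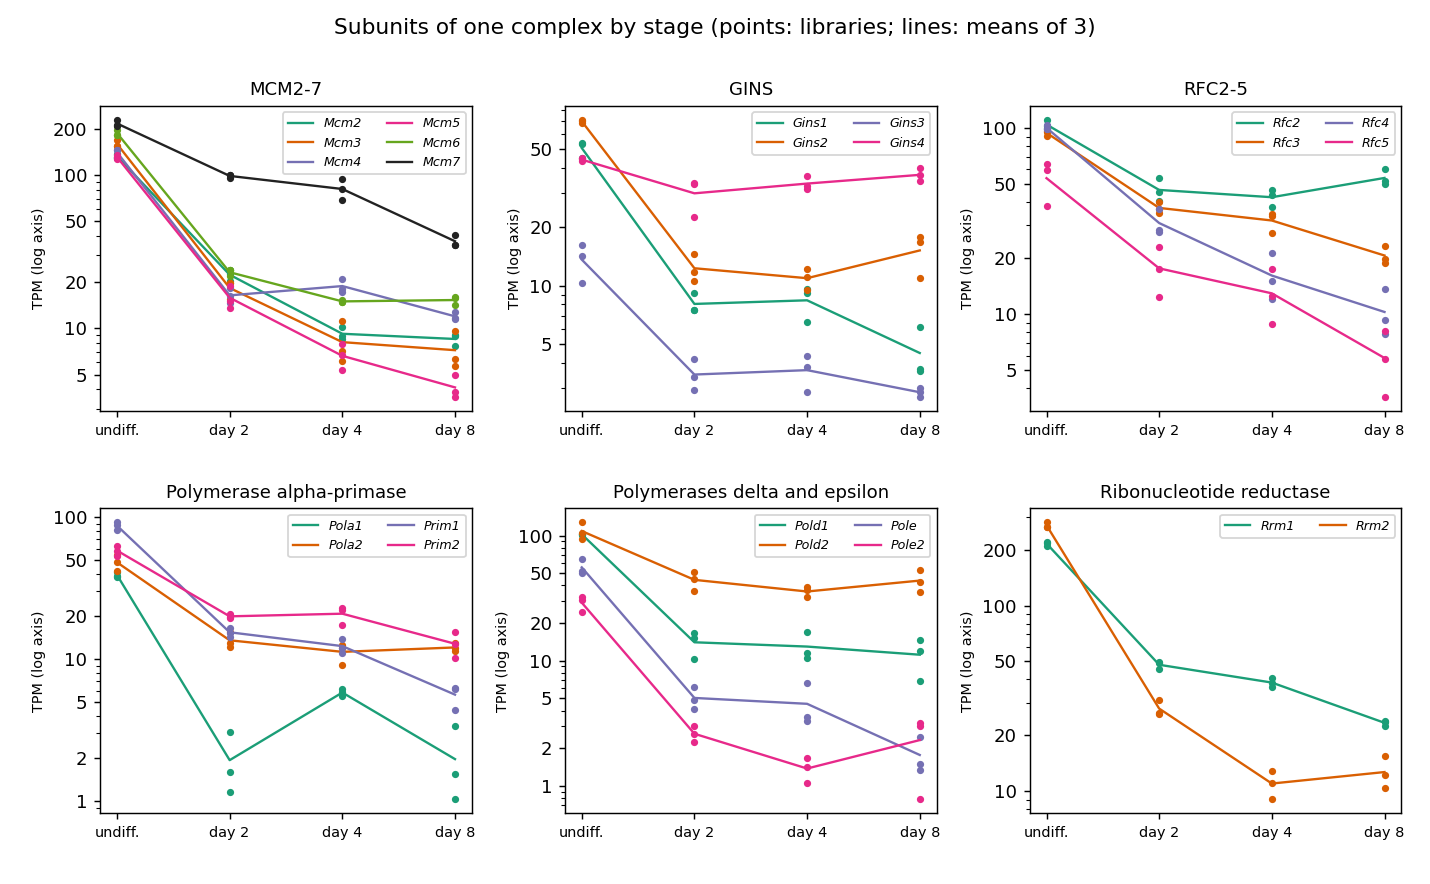
Mean level in TPM (log axis) of the subunits of MCM2-7, GINS, RFC2-5, polymerase alpha-primase, polymerases delta and epsilon, and ribonucleotide reductase in undifferentiated cells and at day 2, day 4 and day 8 of differentiation. The lines of MCM2-7, RFC2-5 and polymerase delta lie close together in undifferentiated cells, and Mcm7, Gins4, Rfc2 and Pold2 stand above their partners at day 8.

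Among the 6 genes of helicase activation, all fell at day 2 and day 4, and 5 at day 8, where Gins4 did not pass. Mcm10, a factor needed for origin firing, had 56.4, 49.0 and 48.1 TPM with naloxone, DAMGO and NC in undifferentiated libraries and 3.82, 3.22 and 3.22 at day 2. Mcm10 then had 1.66, 0.87 and 1.46 TPM at day 4 and 0.94, 2.43 and 0.53 at day 8. All 9 differentiating libraries lay far below the undifferentiated ones, and the fitted change was -3.87 ± 0.16 at day 2 and -5.54 ± 0.19 on day 8 (adjusted p = 2.07e-08 and 2.23e-09). Cdc45, the helicase cofactor, was at 10.7% of its undifferentiated level at day 2 and 4.44% at day 8. Gins4, which encodes the SLD5 subunit of GINS, had 45.0, 43.5 and 44.5 TPM with naloxone, DAMGO and NC in undifferentiated libraries and 33.2, 22.6 and 33.5 at day 2. Gins4 then had 36.4, 32.3 and 31.5 TPM at day 4 and 36.8, 34.2 and 40.0 at day 8. Its day 8 libraries lay just below the undifferentiated ones, and the fitted change was -0.54 ± 0.12 at day 2 (adjusted p = 0.00274) and -0.05 ± 0.12 on day 8 (adjusted p = 0.741), which was not past the threshold. With a trend on GC content and length removed, the day 8 change of Gins4 was -0.65 (adjusted p = 0.000252). The other GINS subunits, Gins1, Gins2 and Gins3, were at 8.87%, 21.7% and 20.9% of their undifferentiated level at day 8, and the highest GINS transcript stood 13.1-fold over the lowest there, against 5.13-fold in undifferentiated cells.

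All 17 replication fork genes fell at day 2 and 16 at day 8, with a median log2 change of -1.88 and -2.72. Pola1, the catalytic subunit of polymerase alpha, had 38.7, 37.7 and 41.0 TPM with naloxone, DAMGO and NC in undifferentiated libraries and 1.16, 1.60 and 3.08 at day 2. Pola1 then had 5.48, 5.84 and 6.16 TPM at day 4 and 3.36, 1.03 and 1.55 at day 8. It was at 4.97% of its undifferentiated level at day 2, 14.9% at day 4 and 5.06% on day 8, and its fitted change was -4.40 ± 0.20 at day 2 and -5.04 ± 0.21 on day 8 (adjusted p = 3.07e-08 and 7.85e-09). The effective length of Pola1 on day 8 was 0.696 of its undifferentiated value, so that its TPM there is higher relative to undifferentiated cells than its counts are. Its partners in polymerase alpha-primase held more, with Pola2 at 28.3%, Prim1 at 17.8% and Prim2 at 34.4% of their undifferentiated level at day 2. Rpa1, the large subunit of the protein that coats single-stranded DNA, had 115, 111 and 125 TPM with naloxone, DAMGO and NC in undifferentiated libraries and 63.2, 61.7 and 53.1 at day 2. Rpa1 then had 80.9, 79.0 and 91.9 TPM at day 4 and 133, 112 and 115 at day 8. The day 2 and day 4 libraries lay below all undifferentiated ones, while the day 8 libraries overlapped with them. The fitted change of Rpa1 was -0.86 ± 0.11 at day 2 (adjusted p = 6.67e-05) and 0.25 ± 0.11 on day 8 (adjusted p = 0.0561). At day 8 Rpa1 was called higher with upper quartile scaling (0.31, adjusted p = 0.0389), with limma-voom (0.25, 0.0464) and without the day 2 NC, day 4 NC or day 4 naloxone library (0.25 each, adjusted p = 0.0104, 0.0482 and 0.0460), and its fitted change ranged from -0.12 to 0.31 over the 23 alternatives run. Rpa2, the middle subunit of the same protein, was at 28.8% of its undifferentiated level at day 2 and 31.5% at day 8.

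Pcna was at 16.7% of its undifferentiated level at day 2, 20.5% at day 4 and 20.9% on day 8, with 115.4 to 125.5 TPM in day 2 libraries and 120.3 to 164.5 TPM in day 8 libraries, against 699 to 738 TPM in undifferentiated ones. Pcna and Rpa1 together made up 54.5% of the summed TPM of the fork genes at day 8, against 41.0% in undifferentiated cells. The fork genes as a whole summed to 23.9%, 23.7% and 24.4% of the undifferentiated level at day 2, day 4 and day 8, and the other 15 to 25.6%, 21.0% and 18.8%. Among the clamp loader genes, Rfc2 was at 51.6% of its undifferentiated level at day 8, Rfc3 at 21.9%, Rfc4 at 10.2% and Rfc5 at 10.8%. The effective length at day 8 was 0.863 of the undifferentiated value for Rfc4 and 1.204 for Rfc5. On counts the fitted day 8 change was -3.33 ± 0.14 for Rfc4 and -2.72 ± 0.20 for Rfc5. For polymerase delta, the accessory subunit gene Pold2 was at 40.2% at day 8 and the catalytic subunit gene Pold1 at 10.9%, and both polymerase epsilon genes were under 10%, Pole at 3.17% and Pole2 at 7.98%. The effective length of Pold1 at day 8 was 1.154 of its undifferentiated value. The flap endonuclease gene Fen1 and the ligase gene Lig1, which finish the lagging strand, were at 11.2% and 5.73% at day 8. Rfc2, Rfc4, Rfc5, Fen1 and Lig1 each overlap another gene on the other strand, and Pcna has processed pseudogene copies with which reads can be shared.

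**Figure D3:**
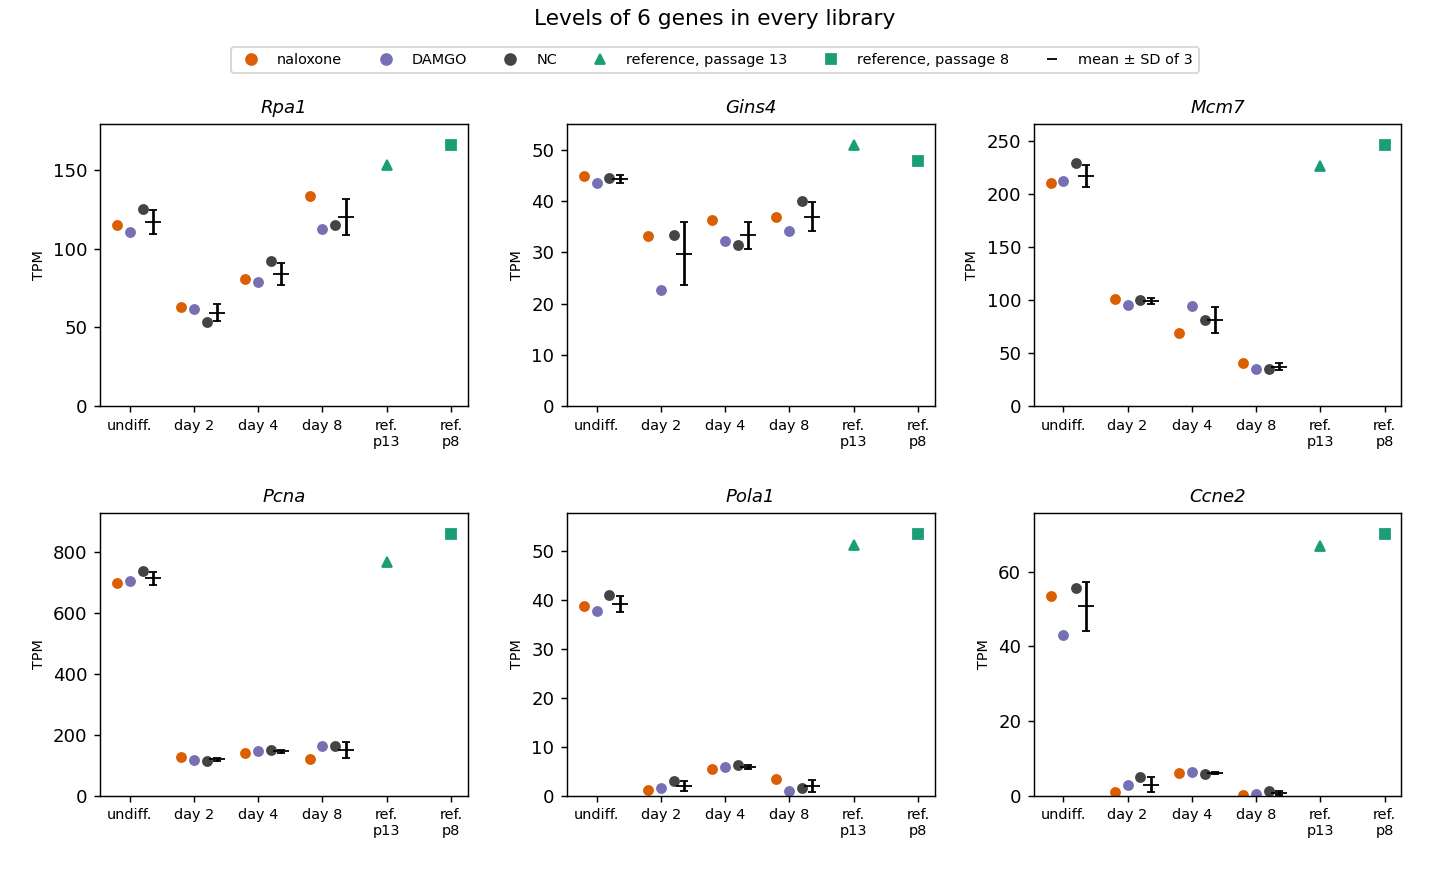
Level in TPM of Rpa1, Gins4, Mcm7, Pcna, Pola1 and Ccne2 in every library, by stage, with the mean ± SD of the 3 libraries of a stage. Rpa1 and Gins4 at day 8 lie at or close to their undifferentiated level, while Pola1 and Ccne2 are lowest at day 2 and day 8 and higher at day 4.

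All 5 genes of nucleotide supply fell at each stage, with a median log2 change of -2.28 at day 2 and -3.00 at day 8. Tk1, the cytosolic thymidine kinase, had 139.9, 151 and 149.5 TPM with naloxone, DAMGO and NC in undifferentiated libraries and 10.5, 12.2 and 11.2 at day 2. Tk1 then had 4.30, 9.24 and 4.68 TPM at day 4 and 3.25, 2.75 and 2.82 at day 8. It was at 7.70% of its undifferentiated level at day 2 and 2.0% at day 8, with fitted changes of -3.66 ± 0.20 and -5.36 ± 0.24 (adjusted p = 1.26e-07 and 1.34e-08). Rrm1, the large subunit of ribonucleotide reductase, had 219, 210.4 and 219 TPM with naloxone, DAMGO and NC in undifferentiated libraries and 49.4, 49.0 and 45.4 at day 2. Rrm1 then had 36.5, 38.3 and 40.5 TPM at day 4 and 23.9, 23.6 and 22.5 at day 8. Its change at day 2 was the smallest of the 5, -2.14 ± 0.08 (adjusted p = 8.79e-09). Rrm2, the small subunit that is made in S phase, was at 10.3% of its undifferentiated level at day 2, against 22.2% for Rrm1. The ratio of Rrm2 to Rrm1 in TPM was 0.534 to 0.633 in day 2 libraries, 0.235 to 0.351 in day 4 libraries and 0.462 to 0.654 in day 8 libraries, against 1.21 to 1.29 in undifferentiated libraries, with no overlap. Dut, the dUTPase gene, had 160.0, 164 and 160.3 TPM with naloxone, DAMGO and NC in undifferentiated libraries and 42.2, 28.3 and 26.7 at day 2. Dut then had 25.8, 29.1 and 34.0 TPM at day 4 and 27.3, 25.4 and 33.2 at day 8. Of the 5 it changed least at day 8, by -2.35 ± 0.16 (adjusted p = 3.12e-07), and its libraries did not overlap with the undifferentiated ones. Tyms, the thymidylate synthase gene, was at 15.8% at day 2 and 7.94% at day 8, but its effective length in the tables was 1.41 times the undifferentiated value at day 2 and 1.80 times at day 8, and it has a processed pseudogene copy.

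All 6 E2F control genes fell, with a median log2 change of -2.92 at day 2 and -5.60 at day 8, the largest day 8 median of the 6 roles. E2f7, an atypical E2F that represses, had 15.3, 16.1 and 14.5 TPM with naloxone, DAMGO and NC in undifferentiated libraries and 1.63, 1.67 and 1.34 at day 2. E2f7 then had 2.39, 1.25 and 0.34 TPM at day 4 and 0.12, 0.30 and 0.06 at day 8. All differentiating libraries lay below the undifferentiated ones, and the fitted change was -3.11 ± 0.18 at day 2 and -6.40 ± 0.26 on day 8 (adjusted p = 1.56e-07 and 5.72e-09). The effective length of E2f7 at day 4 was 0.546 of its undifferentiated value, so that its TPM there is higher relative to the other stages than its counts are. At day 4 against day 2 its change was -2.31 ± 0.30 in the fit on counts (adjusted p = 0.000235) and -0.23 on log2(TPM + 1) (limma, adjusted p = 0.457). For E2f8, the other atypical repressor, the day 2 change was 38.6% of the day 8 change on the log2 scale, for E2f7 48.6% and for the activator E2f2 54.3%, the lowest shares of the 45 members called at day 8. Ccne2, a cyclin E gene, had 53.4, 43.2 and 55.7 TPM with naloxone, DAMGO and NC in undifferentiated libraries and 0.92, 2.73 and 4.98 at day 2. Ccne2 then had 6.18, 6.29 and 5.81 TPM at day 4 and 0.22, 0.53 and 1.18 at day 8, and its fitted change was -4.39 ± 0.32 at day 2 and -6.03 ± 0.39 on day 8 (adjusted p = 1.01e-06 and 1.96e-07). The other cyclin E gene, Ccne1, had 31.1, 33.0 and 27.6 TPM with naloxone, DAMGO and NC in undifferentiated libraries and 8.91, 10.2 and 6.36 at day 2. Ccne1 then had 6.80, 4.70 and 5.96 TPM at day 4 and 7.46, 7.18 and 6.50 at day 8. Its groups did not overlap either, but its changes were smaller, -1.83 ± 0.15 at day 2 and -1.86 ± 0.15 on day 8 (adjusted p = 1.96e-06 and 1.00e-06). E2f1, another activator, was at 13.0% of its undifferentiated level at day 2 and 5.75% at day 8. Ccne2 overlaps Ints8 on the other strand, as Tk1 does Afmid, Cdc45 does Ufd1, Gins2 does Gse1 and Chaf1a does Ubxn6.

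The 2 genes of chromatin assembly factor 1, which places new histones behind the fork, both fell, with a median log2 change of -3.46 at day 2 and -4.68 at day 8. Chaf1b, its middle subunit, had 67.6, 70.1 and 76.4 TPM with naloxone, DAMGO and NC in undifferentiated libraries and 6.37, 4.39 and 5.42 at day 2. Chaf1b then had 2.55, 2.13 and 2.03 TPM at day 4 and 1.89, 1.69 and 0.89 at day 8. Chaf1a, the large subunit, had 56.7, 60.8 and 58.9 TPM with naloxone, DAMGO and NC in undifferentiated libraries and 7.27, 6.29 and 5.68 at day 2. Chaf1a then had 4.94, 4.45 and 3.30 TPM at day 4 and 3.87, 2.77 and 3.07 at day 8. Neither overlapped between undifferentiated and differentiating libraries. The fitted change of Chaf1b was -3.76 ± 0.18 at day 2 and -5.39 ± 0.21 on day 8 (adjusted p = 4.30e-08 and 5.00e-09), and that of Chaf1a -3.17 ± 0.13 and -3.97 ± 0.14 (adjusted p = 1.83e-08 and 2.39e-09).

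**Figure D4:**
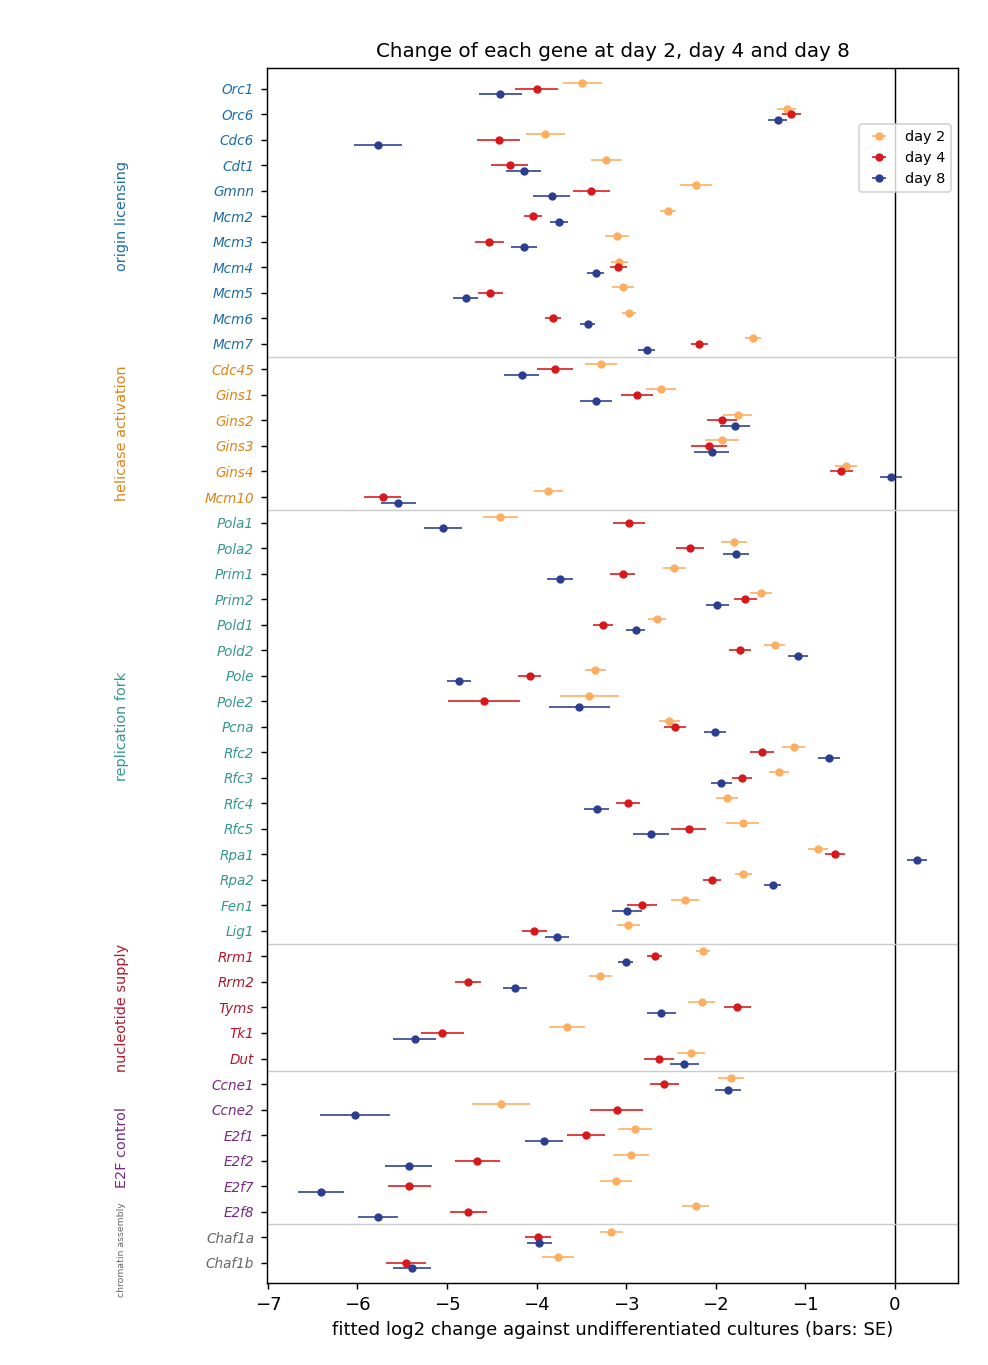
Fitted log2 change ± SE of each of the 47 genes at day 2, day 4 and day 8 against undifferentiated cells, grouped by role. All points lie below 0 except Rpa1 at day 8 (0.25), and Gins4 at day 8 lies at -0.05.

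From day 2 to day 4 the members moved by less. Relative to day 2, 29 of the 47 were lower at day 4 (24.8% of all genes) and 2 were higher (27.1%), with a median of -0.54 against 0.01 over all genes tested. Of the 29, 16 stayed called under each of the 22 alternatives run, among them Mcm2, Mcm3, Mcm5, Mcm6 and Mcm10, Rrm2, E2f2, E2f8 and both Chaf1 genes. The largest fall was that of E2f8, a change of -2.54 ± 0.24 (adjusted p = 2.34e-05). Pola1 was higher, with 5.48 to 6.16 TPM at day 4 against 1.16 to 3.08 TPM at day 2, no overlap, and a fitted change of 1.44 ± 0.22 (adjusted p = 0.000597), which kept its call under each alternative with values of 0.58 to 1.86. Ccne2 was also higher, with 5.81 to 6.29 TPM at day 4 against 0.92 to 4.98 TPM at day 2 and a fitted change of 1.29 ± 0.39 (adjusted p = 0.0187). This call was lost when the day 2 naloxone library was left out (0.88, adjusted p = 0.0692), without the day 2 DAMGO, day 4 naloxone or day 4 DAMGO library (1.20, 1.12 and 1.21, adjusted p = 0.0623, 0.0733 and 0.060), and when a trend on GC content and length was removed (0.22, adjusted p = 0.464). Ccne2 has a GC content of 37.5%, lower than all but 0.826% of the genes tested.

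From day 4 to day 8 the members split. Relative to day 4, 12 were higher at day 8 (37.1% of all genes) and 10 lower (31.5%), with a median of -0.16 against 0.07. The split was different with limma on TPM, where 3 were higher and 22 to 24 lower, and with a trend on GC content and length removed, where 7 were higher and 17 lower. On TPM, 2419 to 2530 of all 13144 genes were higher and 6020 to 6087 lower. With the trend removed, 3797 of all genes were higher and 4577 lower. Mcm2 and Pold1 reversed in direction on TPM and with the trend removed, and Mcm4, Gins4, Pold2, Rrm1 and Dut with the trend removed, Dut at -0.41 (adjusted p = 0.0314) and not called in the fit on counts. On TPM the median of all genes was -0.29 to -0.32, against 0.07 in the fit on counts, and across genes the difference between a day 8 library and the day 4 library of the same treatment correlated with GC content at r = 0.443 to 0.546. Only Rpa1 of the 12 kept its call under each of the 22 alternatives, with 112.3 to 133.2 TPM at day 8 against 79.0 to 91.9 TPM at day 4, no overlap, and a fitted change of 0.92 ± 0.11 (adjusted p = 5.53e-05). Of the 10 lower, Mcm7, Pola1, Pole, Tyms and Ccne2 kept theirs. Pola1 changed by -2.08 and Ccne2 by -2.92 on the log2 scale (adjusted p = 4.14e-05 and 0.000403), with 1.03 to 3.36 TPM of Pola1 and 0.22 to 1.18 TPM of Ccne2 at day 8, against 5.48 to 6.16 and 5.81 to 6.29 TPM at day 4. The fitted level was lowest at day 2 for Pcna and Rpa1, at day 4 for 20 members and at day 8 for 25.

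Most other listed genes of the pathway were also lower at day 2. Of 30 other replication factors, 28 fell at day 2 and 1 rose, and 26 fell and 1 rose at day 8. Of all genes tested, 35.9% were lower and 33.7% higher at day 2, and 38.5% and 41.6% at day 8. The largest falls at day 2 were those of Dscc1 (-4.68) and Atad5 (-4.32), which act with alternative clamp loaders, Clspn (-4.07), the checkpoint adaptor claspin, and Dbf4 (-3.64), the activator of the Cdc7 kinase. The gene that rose at both times was Pold4, a small subunit of polymerase delta, at 53.8 TPM on day 2 and 37.3 TPM on day 8, against 26.1 TPM in undifferentiated cells, with fitted changes of 1.09 ± 0.11 and 0.74 ± 0.11. Of 26 other nucleotide enzymes, 24 fell and 2 rose at day 2, with the folate enzyme gene Shmt1 (-3.83) among the largest falls. At day 8, 19 were lower than in undifferentiated cells and 3 higher, with a median of -0.60. Against day 4, 14 were higher and 5 lower (37.1% and 31.5% of all genes). The 2 that rose, Tk2 (0.85 ± 0.11) and Dguok (0.82 ± 0.12), encode the mitochondrial deoxynucleoside kinases, and both were higher at day 8 too (1.14 ± 0.11 and 1.29 ± 0.12). Cytosolic Tk1 and mitochondrial Tk2 thus differed in direction at both times.

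Of 16 other E2F and pocket protein genes, 14 fell and 1 rose at day 2, and 12 fell and 1 rose at day 8. The shares over all genes were 35.9% lower and 33.7% higher at day 2, and 38.5% and 41.6% at day 8. At day 4, 31.0% of all genes were lower. Ccna2, the S phase cyclin A gene, fell most (-3.59 at day 2 and -7.03 at day 8), and the gene that rose at both times was Rbl2, the pocket protein p130 of resting cells (0.45 ± 0.10 each). Of 10 other replication chromatin genes 8 fell at day 2 and 9 at day 8, led by the helicase gene Hells (-5.38 at day 2). Of 12 cyclin D, CDK4/6 and CDK inhibitor genes 8 fell and 2 rose at day 2, and 8 fell and 3 rose at day 8. Ccnd1 had 59.0 ± 5.41 TPM at day 2 against 1292 ± 14.3 TPM in undifferentiated cells, and the inhibitor gene Cdkn1a was also lower, at 26.1 ± 1.91 TPM at day 2 against 302 ± 32.1 TPM in undifferentiated cells. The inhibitor gene Cdkn1c rose at day 2 (2.21 ± 0.16) and Cdkn2b at day 8 (3.40 ± 0.16). For comparison, all 40 of a list of mitosis genes fell at each time, with a median of -3.29 at day 2 and -6.04 at day 8, beside -2.54 and -3.43 for the replication members, and the difference between the lists was not tested.

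Over the 4 stages, neither drug changed a member past the threshold. Each drug against NC, and naloxone against DAMGO, called 0 of 47 members and 0 of 13144 genes (0.0%; edgeR quasi-likelihood test, Benjamini-Hochberg adjustment). At an unadjusted p under 0.05 naloxone against NC had 1 member, Pola1 (10.1% of all genes). DAMGO against NC had 1, Orc1 (2.39%), and the drugs against each other 2, Orc1 and Prim2 (1.74%). Fitted changes of members ranged from -0.49 to 0.32 for naloxone against NC and from -0.53 to 0.30 for DAMGO against NC, with medians of 0.04 and 0.03. The largest difference between the drugs was that of Orc1, 0.63 ± 0.22 for naloxone against DAMGO, which did not pass (adjusted p = 1.0). No member was called by any of the 21 alternatives run for these comparisons.

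Within day 2, where both drug libraries were set against the NC library, 2 members were lower (15.2% of all genes) and 1 was higher (1.80%). Pola1 had 1.16 TPM with naloxone and 1.60 with DAMGO, against 3.08 with NC, a fitted change of -1.18 ± 0.24 (adjusted p = 0.00424). Ccne2 had 0.92 TPM with naloxone and 2.73 with DAMGO, against 4.98 with NC, a change of -1.63 ± 0.36 (adjusted p = 0.00687). Rpa1 had 63.2 TPM with naloxone and 61.7 with DAMGO, against 53.1 with NC, a change of 0.43 ± 0.13 (adjusted p = 0.0420). Most members were not lower with the drugs at day 2, and a change above 0 was fitted for 35 of the 47 (50.8% of all genes), with a median of 0.22 against 0.01, and both drug libraries exceeded NC for 33 (42.2%). With limma on TPM none of the 3 was called, and with DESeq2 2 of the 3 calls were lost. None of the 3 calls was kept by every alternative. That of Rpa1 was lost with DESeq2 (0.51, adjusted p = 0.0808) and, at 0.42 to 0.45, when any naloxone or DAMGO library of the undifferentiated, day 2 or day 4 stage was left out. With a trend on GC content and length removed, Pola1 was at -0.19 and Ccne2 at -0.49, neither called, and without the day 2 naloxone library at -1.04 and -1.20, neither called.

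Across 13075 genes the difference between a day 2 drug library and the day 2 NC library correlated with GC content, with Pearson's r = 0.598 for naloxone and 0.565 for DAMGO, a description over genes that share libraries and are not independent. The same r at day 8 was 0.504 for naloxone and 0.011 for DAMGO. It was 0.099 and 0.169 in undifferentiated cells and -0.049 and -0.014 at day 4. Ccne2 had the lowest GC content of the 47 members (37.5%) and Pola1 the next lowest (41.7%), where the member median was 49.7%. The neuron markers summed to 385 TPM with naloxone and 479 with DAMGO, against 884 with NC, at day 2, and their part in these differences was not tested. In the undifferentiated, day 4 and day 8 cultures the same contrast called 0 members (0.00761%, 0.0% and 0.0% of all genes in either direction), with 0, 0 and 1 at an unadjusted p under 0.05 (1.73%, 1.71% and 5.41% of all genes). The 1 was Ccne2 at day 8, at -1.84 ± 0.62, with 0.22 TPM with naloxone and 0.53 with DAMGO against 1.18 with NC. Without the day 8 DAMGO library, Pcna, at 120.3 TPM with naloxone against 163.9 with NC, was called lower at day 8 (-0.49, adjusted p = 0.00813). That fit set 1 naloxone library against 1 NC library, with the spread taken from the other stages, and it called 816 of 13347 genes lower and 96 higher, where the fit with all libraries called 0 of each. The difference of the drug effect at day 2 from the mean of the other 3 stages passed for Pola1 alone of the members, at -0.93 ± 0.27 (adjusted p = 0.0472; 10.6% of all genes were lower and 0.525% higher).

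**Figure D5:**
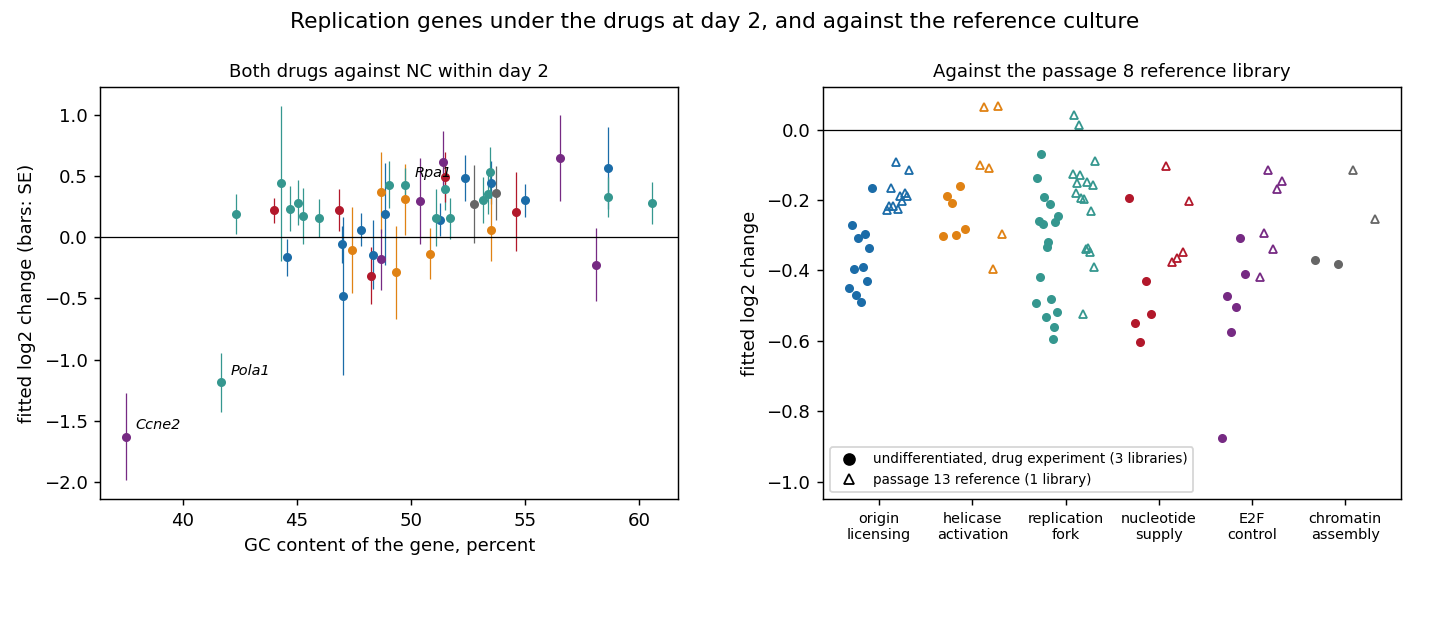
Left, fitted log2 change ± SE of the 47 genes with both drugs against NC at day 2, plotted against the GC content of each gene, and right, fitted log2 change against the passage 8 reference, by role, for the undifferentiated cultures of the drug experiment (circles) and for the passage 13 reference (triangles). On the left Ccne2 (-1.63) and Pola1 (-1.18) lie lowest and at low GC content, and on the right all 47 circles lie below 0.

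No member differed from the reference cultures past the threshold. The undifferentiated drug-experiment cultures summed to 4636.5 to 4763.7 TPM over the members, against 5814.7 TPM in the passage 8 reference. Fitted changes were below 0 for all 47 members (52.2% of all genes), with a median of -0.37 against -0.01, but 0 members passed the threshold with edgeR's quasi-likelihood test (0.304% of all genes were higher and 0.141% lower), and 21 had an unadjusted p under 0.05, as did 1620 of the 13497 genes tested. The smallest adjusted p was that of Ccne1, with 31.1 TPM with naloxone, 33.0 with DAMGO and 27.6 with NC against 52.5 TPM in the reference, a change of -0.88 ± 0.16 (adjusted p = 0.0541). It was called with no filter on low counts (adjusted p = 0.0399) and with limma-voom (adjusted p = 0.0218). The passage 13 reference summed to 5146.2 TPM, against 5814.7 TPM at passage 8. A change below 0 was fitted for 43 of the 47 (52.2% of all genes), with a median of -0.19 against -0.01. No member passed (0.0% of all genes higher and 0.0222% lower) and 0 had an unadjusted p under 0.05 (4.71% of all genes), with members between -0.53 and 0.07. Rrm2 over Rrm1 was 1.21 to 1.29 in the undifferentiated drug-experiment libraries, against 1.33 at passage 13 and 1.59 at passage 8. Mcm7 over the median of the other MCM genes was 1.44 to 1.61 in the undifferentiated drug-experiment libraries, against 1.44 at passage 13 and 1.37 at passage 8. The undifferentiated drug-experiment libraries held 0.36 to 1.34 TPM of fibroblast and pericyte markers, against 11.5 TPM in the passage 8 reference, and the part of this in the difference was not tested. With 1 library in each reference group, the comparison between passages rests on a spread taken from the drug experiment.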

How the data were processed

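Libraries of 14 cultures were made from total RNA with a TruSeq kit, per the labels' protocols, and that kit does not mark the strand. The authors deposited 1 table per library with expected counts and TPM per gene, made with Bowtie and RSEM on mm10, per the submitters' processing notes, no version being given in the sources used here. The expected counts, of which the deposited tables hold 10.4% to 13.1% that are not whole, were rounded for edgeR 4.0.16 (R 4.3.3). TPM as deposited by the authors (RSEM abundance corrected for length) served for levels and for 2 alternatives. Stage comparisons used TMM scaling, a filter on low counts (13144 genes), and quasi-likelihood tests with stage and treatment terms over 12 libraries (6 residual degrees of freedom), and p-values were adjusted by Benjamini-Hochberg over all genes, with a threshold of 0.05. Drug terms within a stage let both drugs share a level (4 residual degrees of freedom). Their spread is thus the difference between the naloxone and DAMGO libraries, and the 1 NC library of a stage adds none. The reference cultures were set in a fit over 14 libraries (13497 genes). Scripts were tested on simulated data. Limma 3.58.1, DESeq2 1.42.0 and mgcv 1.9.3 served for alternatives. Overlapping genes were read from GENCODE M21 and promoters from RefSeq (GRCm38.p6). Members and gene lists were chosen with earlier results of these data known. Per-library values are given for the members with the largest and smallest change in each role and for those that passed in a drug comparison, and for Mcm5 and Mcm7, which were picked after their values were seen. With 1 library per condition, the p-values rest on the spread between libraries of different conditions, which may be technical.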

Additional observations from a re-analysis of the deposited data

Results flagged for a closer look

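The change of Pola1 with both drugs against NC at day 2, less the mean of the same change over the other 3 stages, was -0.93 ± 0.27 on the log2 scale and passed the test of that difference between stages (edgeR quasi-likelihood test, adjusted p = 0.0472). Of all genes tested, 10.6% were lower in this test. The call was lost under 14 of the 16 alternatives run, over which the value lay between -1.13 and -0.04. With a trend on GC content and length removed the value was -0.04 (adjusted p = 0.975).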

How the results depend on the processing

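The fall of the members at day 2, day 4 and day 8 kept its direction and stayed within 1.5 times its count under each of the 23 alternatives run. At day 8, 1 member was higher with upper quartile scaling (5662 of 13144 genes) and 1 with limma-voom (5450 of 13144 genes), and 0 to 1 when each library was left out in turn (5238 to 5671 of all genes). At day 4 against day 2, on log2(TPM + 1) and log2(TPM + 0.1), 17 and 17 members were lower and 4 and 5 higher, with 1 higher once a trend on GC content and length was removed. Of all 13144 genes, 1565 and 1533 were lower and 4755 and 4636 higher on these scales, and 2752 higher with the trend removed. Leaving out each library gave 22 to 32 members lower and 1 to 3 higher. Of all genes, it gave 2402 to 3755 lower and 2565 to 4051 higher. At day 8 against day 4, the same TPM scales gave 22 and 24 lower and 3 and 3 higher, the removed trend 17 and 7, and leaving out each library 7 to 12 and 10 to 13. Of all 13144 genes, the TPM scales gave 6087 and 6020 lower and 2530 and 2419 higher, and the removed trend 4577 and 3797. With each library left out, 3675 to 4616 of all genes were lower and 4381 to 4899 higher. With both drugs against NC at day 2, DESeq2 called 1 lower and 0 higher, either TPM scale 0 and 0, and the removed trend 0 and 4, while upper quartile scaling called 5 higher. Of all 13144 genes, DESeq2 called 1117 lower and 107 higher, and the removed trend 866 and 1126. The TPM scales called 1486 and 1356 lower and 37 and 38 higher, and upper quartile scaling 1127 higher. Leaving out each library gave 0 to 2 lower and 0 to 3 higher, and 0 to 1 lower at day 8. Of all genes at day 2, leaving out each library outside day 2 gave 1727 to 2611 lower and 87 to 1119 higher. For the difference of day 2 from the other stages, 0 members were lower with the size factors of DESeq2, upper quartile scaling, no filter, DESeq2, limma-voom, either TPM scale or the removed trend, and 1, 2, 1 and 2 were higher with the size factors, upper quartile scaling, no filter and the removed trend. Of all 13144 genes, 224 were higher with the size factors, 345 with upper quartile scaling and 543 with the removed trend, and 152 of 20255 with no filter. Leaving out each library gave 0 to 1 members lower and 0 to 3 higher. Of all genes, leaving out each library outside day 2 gave 1008 to 2235 lower and 15 to 686 higher in that test. Against the passage 8 reference, 1 member was lower with no filter (21 of 20529 genes) and 1 with limma-voom (21 of 13497 genes). The cause was not tested for these.

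On TPM the median of all genes was 0.21 to 0.23 at day 4 against day 2 (0.01 in the fit on counts), -0.29 to -0.32 at day 8 against day 4 (0.07) and -0.16 to -0.18 at day 8 against undifferentiated cells (0.05). Alternatives without the day 2 libraries, and without each undifferentiated library for the reference comparison, were chosen after seeing the data. No paired analysis was possible because every replicate number is 1, so that the numbers pair no libraries. Without the treatment term, which sets libraries of 1 treatment against each other across stages, 47, 47 and 45 members were lower at day 2, day 4 and day 8. Of all 13144 genes, 4662, 4040 and 5067 were. Members at 1 to 7 counts in a day 8 library have imprecise folds.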

Other observations

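A few replication genes outside the 47 were also lower with both drugs than with NC at day 2, among those already named for their fall at day 2. Hells changed by -2.19 ± 0.38 (log2, edgeR adjusted p = 0.00145), Atad5 by -0.93 ± 0.26 (adjusted p = 0.0256) and Dbf4 by -0.72 ± 0.20 (adjusted p = 0.0246), where 15.2% of all genes were called lower. With a trend on GC content and length removed none of the 3 was called, with Hells at -1.14 (adjusted p = 0.072), Atad5 at 0.23 (adjusted p = 0.691) and Dbf4 at -0.07 (adjusted p = 0.881). In the same comparison 7 of 30 other replication factors were lower and 1 higher, 2 of 10 other replication chromatin genes were lower and 1 higher, 3 of 16 other E2F and pocket protein genes were lower and 0 higher, and 2 of 26 other nucleotide enzymes were lower and 3 higher. Of all genes, 15.2% were called lower and 1.8% higher. Atad5 and Hells, like Pola1 and Ccne2, were higher at day 4 than at day 2, by 1.50 ± 0.26 (adjusted p = 0.00118) and 1.32 ± 0.45 (adjusted p = 0.0323), and all 4 were lower at day 8 than at day 4. Pola1 kept its day 4 call under every alternative, while Ccne2 was at 0.22 and not called with the trend removed. Across genes, a day 4 library less the day 2 library of its treatment correlated with GC content at r = -0.501 to -0.17.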
